A study of Homo sapiens with 15 samples.

Results

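The genes described here are 31 genes of cholesterol and fatty acid synthesis in A549 cells, a human lung adenocarcinoma line. They were chosen by name, as the array probes whose gene name was one of 31 listed members, and all 31 were found among the 30484 gene names on the array. In each of 15 dual-color arrays, A549 cells transfected with the synthetic precursor of 1 miRNA, called mimic cells below, were compared with A549 cells transfected with an antagomir against the same miRNA, an antisense oligonucleotide that blocks it. The miRNAs were miR-766, miR-629*, miR-574-3p, miR-565 and miR-181d. Each miRNA had 3 arrays, an oligonucleotide dose of 20 nM and RNA taken 24 h after transfection. The labels name no irradiation and no genetic change in either population. Mimic RNA carried Cy5 and antagomir RNA Cy3 on every array, so a difference between mimic and antagomir cells cannot be told apart from a difference between the dyes, and no array analysed here held untreated or mock-transfected cells. Nothing says whether the arrays of a miRNA came from separate cultures, and p-values then measure only the spread between arrays.

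Cells make cholesterol from acetyl-CoA through mevalonate, isoprenoids, squalene and lanosterol, and make fatty acids from the same acetyl-CoA. Most enzymes of both routes are transcribed under the control of the sterol regulatory element-binding proteins, SREBF1 and SREBF2, which are made as membrane proteins. SCAP carries them from the endoplasmic reticulum to the Golgi for cleavage when sterol is low, and INSIG1 and INSIG2 hold SCAP back when sterol is high.

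Of the transfected miRNAs, 3 had an entry among the RefSeq sequences used here. The mature sequences are shown because they are the agents compared, written 5′ to 3′ with the seed, bases 2 to 8, in capitals. The genes lie at chr19:13874910-13874932 on the plus strand (miR-181d), chr4:38868092-38868113 on the plus strand (miR-574-3p) and chr15:70079387-70079408 on the minus strand (miR-629*) of GRCh38.p14.
miR-181d: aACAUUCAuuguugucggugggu
miR-574-3p: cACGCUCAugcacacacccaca
miR-629*: gUUCUCCCaacguaagcccagc
The 3 seeds differ from one another. miR-565 and miR-766 are given by name only.

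Promoter sequence from RefSeq, the 250 bases before a transcription start, was found for 27 of the 31 genes (37 starts). Searched on both strands, the sterol regulatory element TCACNCCAC lay in 1 of the 37 promoters, that of SREBF2, and in 0.883% of all 35116 promoters of this length. The E-box CACGTG lay in 4 of the 37 (of INSIG1, SC5DL and SCAP) and in 6.34% of all promoters, and the CCAAT box, bound by the factor NF-Y, in 23 of the 37, of 19 genes, and in 32% of all promoters. No motif searched contains another. A match describes letters in this window and is not a binding site. The promoters of 4 genes that the results below turn on are shown 5′ to 3′ on the gene's strand with matches in capitals. They lie in GRCh38.p14 at chr22:41832855-41833104 (plus strand, SREBF2, with the element TCACCCCAC), chr16:88663092-88663341 (minus strand, MVD), chr11:71448394-71448643 (minus strand, DHCR7) and chr1:162790452-162790701 (plus strand, HSD17B7), and the remaining capitals are CCAAT or its reverse complement ATTGG.
SREBF2: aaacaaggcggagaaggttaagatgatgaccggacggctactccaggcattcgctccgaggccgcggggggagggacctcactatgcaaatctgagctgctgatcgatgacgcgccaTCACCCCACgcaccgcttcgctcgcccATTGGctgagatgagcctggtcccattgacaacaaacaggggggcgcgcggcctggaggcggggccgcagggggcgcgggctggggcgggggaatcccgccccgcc
MVD: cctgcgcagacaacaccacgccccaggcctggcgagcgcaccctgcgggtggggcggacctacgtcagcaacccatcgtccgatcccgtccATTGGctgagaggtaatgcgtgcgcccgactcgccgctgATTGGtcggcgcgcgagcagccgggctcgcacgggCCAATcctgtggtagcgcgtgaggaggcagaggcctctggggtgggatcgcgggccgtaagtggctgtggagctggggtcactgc
DHCR7: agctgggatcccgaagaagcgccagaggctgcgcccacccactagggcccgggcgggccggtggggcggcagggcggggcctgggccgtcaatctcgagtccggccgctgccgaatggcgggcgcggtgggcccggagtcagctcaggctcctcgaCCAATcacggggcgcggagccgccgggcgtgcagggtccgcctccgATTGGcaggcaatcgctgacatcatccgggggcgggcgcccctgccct
HSD17B7: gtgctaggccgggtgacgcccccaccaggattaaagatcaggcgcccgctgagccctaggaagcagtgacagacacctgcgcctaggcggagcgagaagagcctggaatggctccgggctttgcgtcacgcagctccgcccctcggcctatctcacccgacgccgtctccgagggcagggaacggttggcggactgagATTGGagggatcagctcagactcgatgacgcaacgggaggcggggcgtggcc

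Signals stood above background for the whole set, though probes of 1 gene could give different ratios. All 31 genes were read well above background in both channels on all 15 arrays, from the brightest of the 50 probes that carry their names, and ratios are given as the log2 of mimic over antagomir signal, so that 0 is no difference and negative values are lower in mimic cells. A gene was called when its limma adjusted p was under 0.05 over all 31357 tested probes, and the background share is that of the 23016 genes tested. Epithelial markers were above background on all arrays for 5 of 6 genes, as were the aldo-keto reductases AKR1C1 and AKR1B10 and the aldehyde dehydrogenase ALDH1A1, which A549 cells hold in abundance. The endothelial markers were above background on all arrays in both channels for 0 of 3 genes. Of these, VWF was above it on 15 arrays in the mimic channel and on 9 in the antagomir channel. Of the 4 leukocyte markers 2 were above it on all arrays and 1 on none. The markers above it on all arrays were also 2 of 4 for alveolar type 2 cells, 1 of 3 for fibroblasts and 1 of 2 for erythroid cells. Ratios were small. On 14 arrays the 434 member ratios lay between −0.62 and 0.43, and 4 of them were beyond 0.5 in size.

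The remaining array, miR-565 replicate 1, stood apart. The SD of the log2 ratio over all genes was 0.94 there and 0.29 to 0.53 on the others, and the SD over the 31 members was 0.54 against 0.13 to 0.21. On that array 24 of the 31 members lay outside the range of the other 14 arrays, 17 above it and 7 below, against 68.2% of all genes tested there. On the other 14 arrays 4.73% to 18.5% of all genes lay outside the range of the rest. The results are therefore given with all 15 arrays and without this array.

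**Figure D1:**
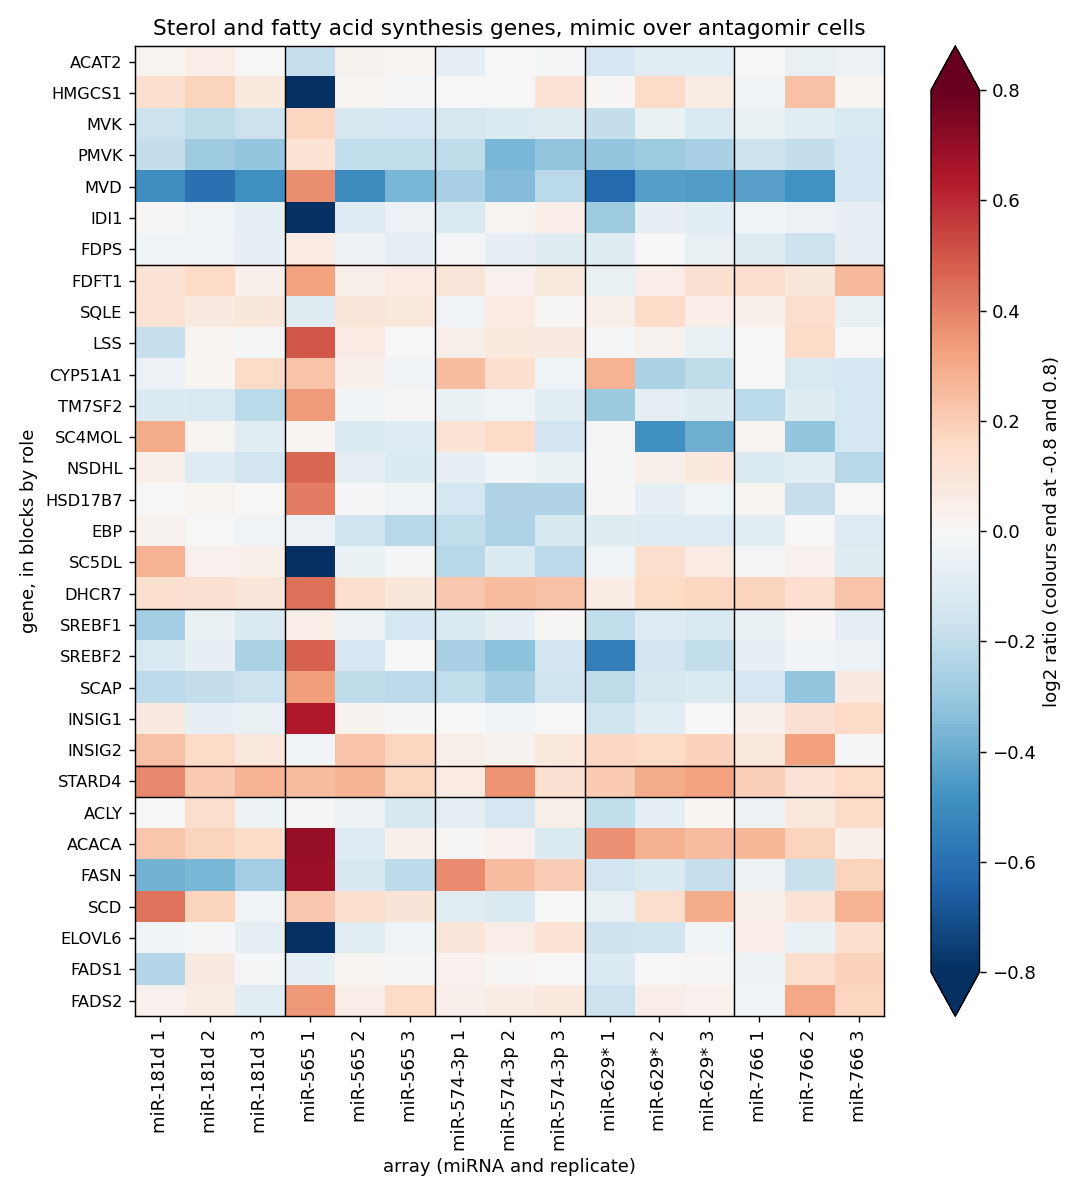
Log2 ratio of mimic over antagomir signal for each of the 31 genes (vertical axis, in blocks by role) on each of the 15 arrays (horizontal axis), red for higher and blue for lower in mimic cells, with colours ending at −0.8 and 0.8. The column of miR-565 replicate 1 is the most strongly coloured, and the line of MVD is blue on the other 14 arrays.

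The members farthest from 0 on miR-565 replicate 1 were enzymes, and they are named here after their values were seen. IDI1, which isomerizes isopentenyl diphosphate, had a log2 ratio of −1.56 on that array and of −0.10 and −0.05 on miR-565 replicates 2 and 3. ELOVL6, which elongates saturated fatty acids, had −1.18, −0.09 and −0.04, and HMGCS1, which makes HMG-CoA, had −0.999, 0.02 and −0.01. SC5DL, the sterol C5-desaturase now named SC5D, had −0.84, −0.05 and −0.01. Each of these 4 genes was thus low on 1 array and near 0 on the other 2. In the other direction ACACA, the acetyl-CoA carboxylase of fatty acid synthesis, had 0.70, −0.10 and 0.04, and FASN, the fatty acid synthase itself, had 0.69, −0.13 and −0.21. INSIG1 had 0.64, 0.03 and −0.02. In signals quantile-normalized between arrays, the departure lay in the Cy5 channel. On that array the normalized antagomir signals of the 31 genes were within −0.10 to 0.10 (log2) of their mean on the other 14 arrays. The normalized mimic signals ran from −1.37 for IDI1 to 0.76 for FASN. Before that normalization antagomir signals could be higher on that array, with EBP at 26590.5 against 13577.5 to 20594.2 on the others. The part of that array's hybridization or labelling in these values was not tested.

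**Figure D2:**
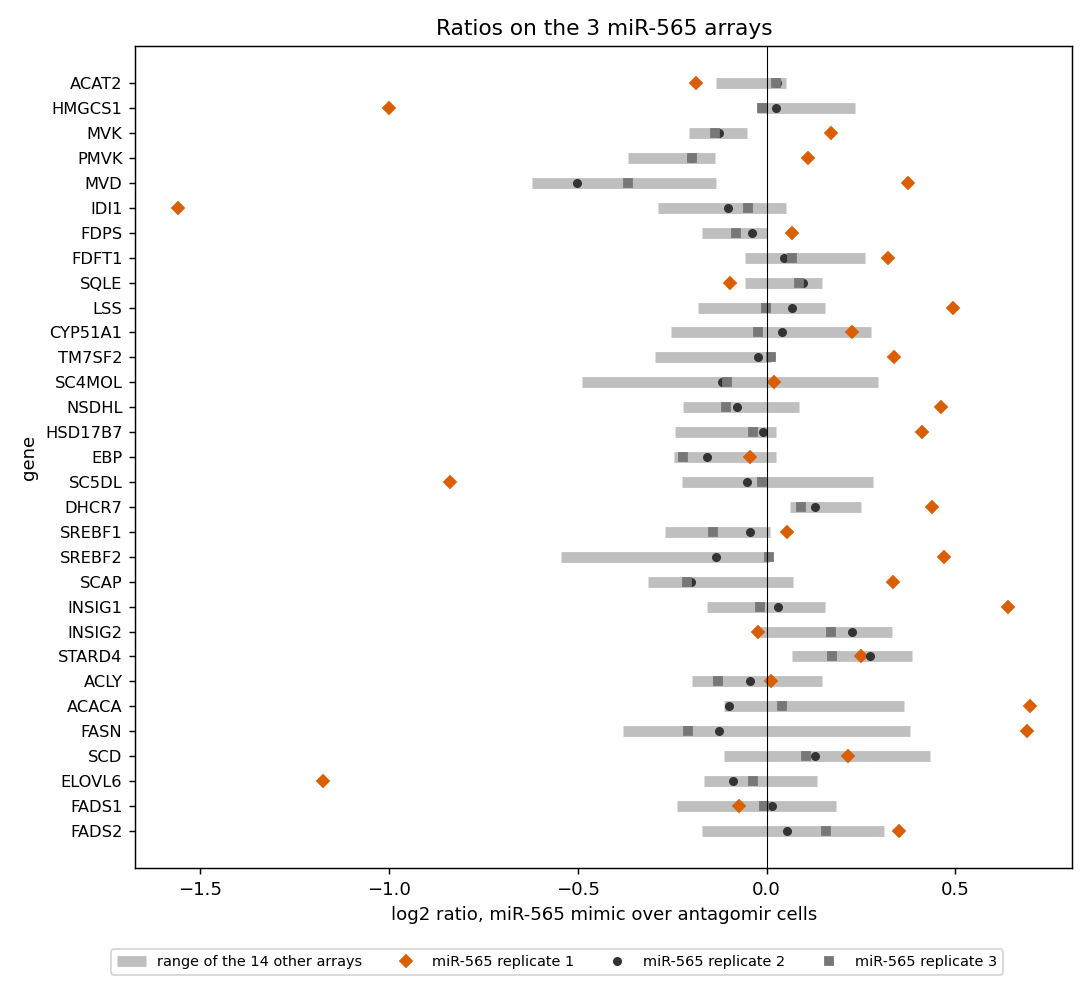
Log2 ratio of miR-565 mimic over antagomir signal (horizontal axis) for each gene (vertical axis) on miR-565 replicates 1, 2 and 3, with a grey bar spanning the 14 arrays other than replicate 1. Replicate 1 lies outside the bar for 24 of the 31 genes, from IDI1 at −1.56 to ACACA at 0.70, while replicates 2 and 3 lie within −0.50 (MVD) and 0.27 (STARD4).

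The mevalonate route held the genes with the lowest ratios. MVD, the decarboxylase that yields isopentenyl diphosphate, had log2 ratios of −0.50, −0.60 and −0.49 on the miR-181d arrays, 0.37, −0.50 and −0.37 for miR-565, −0.26, −0.35 and −0.22 for miR-574-3p, −0.62, −0.44 and −0.45 for miR-629*, and −0.43, −0.49 and −0.13 for miR-766. It was negative on every array but miR-565 replicate 1. Its signal was 569 ± 71.2 in antagomir cells and 451 ± 131 in mimic cells (SD, n = 15 arrays, fluorescence units). PMVK, which phosphorylates phosphomevalonate in the step before, had −0.19, −0.28 and −0.31 for miR-181d, 0.11, −0.20 and −0.20 for miR-565, −0.21, −0.37 and −0.31 for miR-574-3p, −0.31, −0.28 and −0.26 for miR-629*, and −0.17, −0.19 and −0.14 for miR-766. PMVK was also negative on every array but miR-565 replicate 1, and the miR-766 arrays lay above all those of miR-574-3p and miR-629*. That separation was not tested as pairs, and the share of all genes with such a separation is not given. With 15 arrays, the limma test of any difference among the miRNAs did not call PMVK.

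Of the later enzymes, DHCR7 and EBP were the ones called in single comparisons with 15 arrays. DHCR7, the reductase of the last step to cholesterol, had log2 ratios of 0.13, 0.12 and 0.10 for miR-181d, 0.44, 0.13 and 0.09 for miR-565, 0.22, 0.25 and 0.24 for miR-574-3p, 0.06, 0.16 and 0.17 for miR-629*, and 0.18, 0.14 and 0.23 for miR-766, so that it was positive on all 15 arrays. EBP, the sterol isomerase, had 0.03, −0.01 and −0.03 for miR-181d, −0.05, −0.16 and −0.22 for miR-565, −0.20, −0.24 and −0.13 for miR-574-3p, −0.10, −0.10 and −0.11 for miR-629*, and −0.08, −0.00 and −0.10 for miR-766. The miR-181d arrays lay above all miR-574-3p arrays for EBP. This pair was not tested, the share of all genes with such a separation is not given, and the limma test among all miRNAs did not call EBP. STARD4, which carries cholesterol between membranes, had 0.39, 0.21 and 0.28 for miR-181d, 0.25, 0.27 and 0.17 for miR-565, 0.07, 0.36 and 0.12 for miR-574-3p, 0.21, 0.30 and 0.32 for miR-629*, and 0.19, 0.11 and 0.15 for miR-766. STARD4 was positive on all 15 arrays too, at a low signal of 145 ± 22.9 in antagomir cells and 170 ± 23.5 in mimic cells (SD, n = 15).

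The regulators had ratios between −0.55 and 0.33 on the 14 arrays other than miR-565 replicate 1. SREBF1, the transcription factor best known for fatty acid synthesis genes, had log2 ratios of −0.27, −0.05 and −0.12 for miR-181d, 0.05, −0.04 and −0.14 for miR-565, −0.11, −0.08 and 0.01 for miR-574-3p, −0.20, −0.10 and −0.12 for miR-629*, and −0.06, 0.01 and −0.08 for miR-766. SREBF2, the factor best known for cholesterol synthesis genes, had −0.12, −0.07 and −0.25 for miR-181d, 0.47, −0.13 and 0.01 for miR-565, −0.26, −0.33 and −0.16 for miR-574-3p, −0.55, −0.15 and −0.20 for miR-629*, and −0.07, −0.02 and −0.05 for miR-766. SREBF1 was positive on 3 arrays and SREBF2 on 2, and for both the miR-629* arrays lay below all miR-766 arrays. SCAP had −0.21, −0.19 and −0.17 for miR-181d, 0.33, −0.20 and −0.21 for miR-565, −0.20, −0.26 and −0.16 for miR-574-3p, −0.20, −0.13 and −0.11 for miR-629*, and −0.13, −0.31 and 0.07 for miR-766, which is positive on 2 of 15 arrays. INSIG1 had 0.07, −0.06 and −0.06 for miR-181d, 0.64, 0.03 and −0.02 for miR-565, −0.00, −0.02 and 0.00 for miR-574-3p, −0.16, −0.09 and −0.00 for miR-629*, and 0.04, 0.12 and 0.15 for miR-766. INSIG1 was positive on 7 of 15 arrays, and its miR-629* and miR-766 arrays did not overlap. The separations of miR-629* from miR-766 for SREBF1, SREBF2 and INSIG1 were not tested as pairs. The share of all genes with such a separation is not given. With 15 arrays, the limma test of any difference among the miRNAs called no member, so these separations are not shown to be miRNA differences. INSIG2 had 0.23, 0.15 and 0.08 for miR-181d, −0.02, 0.23 and 0.17 for miR-565, 0.05, 0.03 and 0.08 for miR-574-3p, 0.17, 0.16 and 0.19 for miR-629*, and 0.09, 0.33 and −0.02 for miR-766, and it was positive on 13 of 15 arrays.

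**Figure D3:**
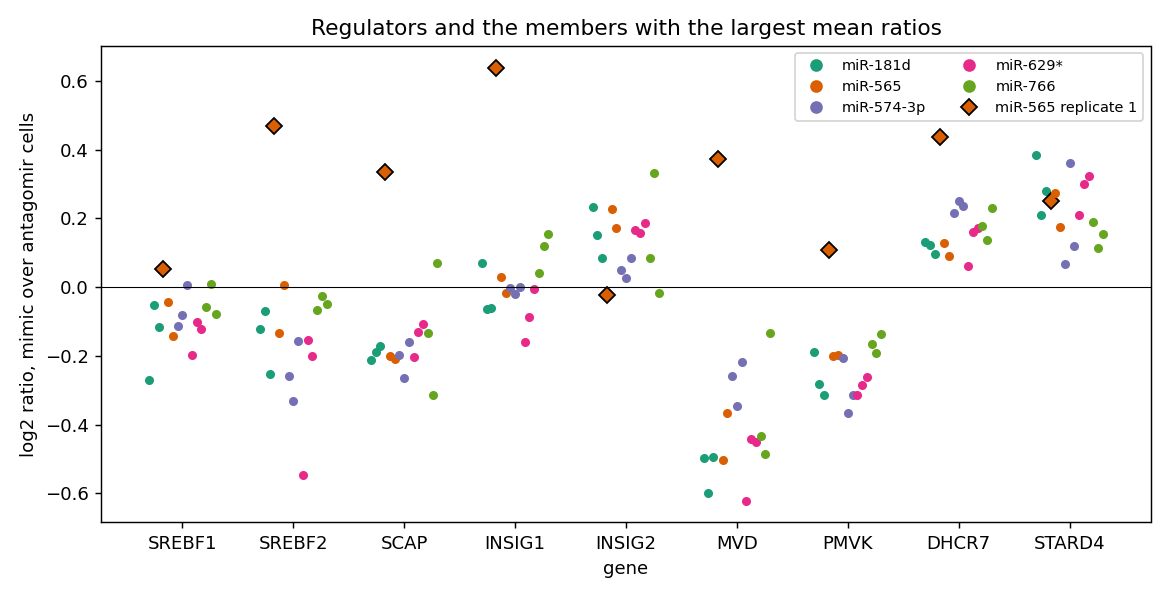
Log2 ratio of mimic over antagomir signal (vertical axis) on each array for the 5 regulators and the 4 members with the largest mean ratios (horizontal axis), coloured by miRNA, with miR-565 replicate 1 as a diamond. DHCR7 and STARD4 lie above 0 on all 15 arrays, and MVD and PMVK below 0 on all arrays but the diamond.

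The comparison of mimic with antagomir cells was made for each miRNA, and within it dye and treatment cannot be told apart. With 15 arrays the calls were few. Among the 31 members, 3 were called for miR-181d, against 6.4% of all genes. PMVK was lower in mimic cells (log2 −0.26, SE 0.056, limma adjusted p = 0.0182), MVD lower (−0.53, adjusted p = 0.0273) and STARD4 higher (0.29, adjusted p = 0.0324). For miR-565, 2 members were called against 14% of all genes, with DHCR7 higher (0.22, limma adjusted p = 0.0267) and EBP lower (−0.14, adjusted p = 0.0396). For miR-574-3p, 3 were called against 5.51% of all genes: PMVK (−0.30, limma adjusted p = 0.00897), EBP (−0.19, adjusted p = 0.0166) and DHCR7 (0.23, adjusted p = 0.0272). For miR-629*, 3 were called against 10.4% of all genes, again PMVK (−0.29, limma adjusted p = 0.00989), MVD (−0.50, adjusted p = 0.0258) and STARD4 (0.28, adjusted p = 0.0299). For miR-766 none was called by limma, against 2.39% of all genes, and 7 members had an unadjusted p under 0.05 against 17.1% of all genes. The median log2 ratio of the 31 members lay between −0.06 (miR-629*) and 0.03 (miR-565), and that of all genes tested between 0.01 and 0.04. The 95% interval of the ratio lay within 1 log2 unit of 0 for all 31 members for 4 of the miRNAs, and for 30 of them for miR-565, where 1 bound lay just beyond it. With the slide that arrays share as a random block, 2, 0, 0, 0 and 0 members were called for miR-181d and miR-565, then miR-574-3p, miR-629* and lastly miR-766. The 2 were MVD at −0.84 (limma adjusted p = 0.0414) and PMVK at −0.39 (adjusted p = 0.0426) for miR-181d. Both values lie below all 3 miR-181d arrays, whose lowest were −0.60 for MVD and −0.31 for PMVK. Their slide also held miR-565 replicate 1, at 0.37 for MVD and 0.11 for PMVK. The estimated slide correlation was 0.63 with that array and −0.18 without it. The part of that array in these 2 values was not tested. The share of all genes called with this block was not computed.

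Without miR-565 replicate 1 the shared estimate of the spread was smaller, and more genes were called throughout the array. The member counts became 11 for miR-181d against 28.1% of all genes, 6 for miR-565 against 16.4%, 11 for miR-574-3p against 23.2%, 16 for miR-629* against 35.6%, and 8 for miR-766 against 19.4%. MVK, PMVK, MVD and DHCR7 were among the called members for each of the 5 miRNAs in this fit. MVD was at −0.44 for miR-565, −0.27 for miR-574-3p and −0.35 for miR-766, and FASN at −0.34 for miR-181d. For miR-629* the other large changes were SC4MOL, the sterol C4-methyl oxidase now named MSMO1, at −0.30, SREBF2 at −0.30 and ACACA at 0.30. Second probes gave −0.30 for SREBF2 and −0.003 for ACACA. For miR-574-3p they were FASN at 0.27, SREBF2 at −0.25 and HSD17B7, a sterol ketoreductase, at −0.21.

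Averaged over the 5 miRNAs, 6 members were higher in the Cy5 (mimic) channel, against 23.1% of all genes, and 9 were lower, against 18.5%. These members were the mevalonate enzymes MVD (−0.36, SE 0.056, limma adjusted p = 0.000301), PMVK (−0.22, adjusted p = 3.01e-05), MVK (−0.11) and FDPS (−0.06), 4 of the 7 genes of that route. Of the 11 genes from squalene to cholesterol, 2 were higher (DHCR7 at 0.18, limma adjusted p = 0.000149, and FDFT1, the squalene synthase, at 0.10) and 2 were lower (EBP at −0.10 and TM7SF2, a sterol reductase, at −0.08). Of the 5 regulators, SREBF1 (−0.09, limma adjusted p = 0.00776), SREBF2 (−0.13, adjusted p = 0.0349) and SCAP (−0.14, adjusted p = 0.015) were lower, INSIG2 (0.13, adjusted p = 0.00411) was higher, and INSIG1 was at 0.04 (adjusted p = 0.447). STARD4 was higher (0.23, limma adjusted p = 0.000166). Of the 7 fatty acid genes ACACA (0.17, limma adjusted p = 0.0256) and SCD, the stearoyl-CoA desaturase (0.11), were higher. Their other probes were not called, at 0.03 (limma adjusted p = 0.631) for ACACA and 0.02 (adjusted p = 0.712) and 0.09 (adjusted p = 0.294) for SCD. The median over the 31 members was −0.02, and over all genes tested 0.01. Without miR-565 replicate 1, 8 members were higher against 31.8% of all genes and 13 lower against 25.9%. With slide as a random block, PMVK alone was called, and the share of all genes was not computed.

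**Figure D4:**
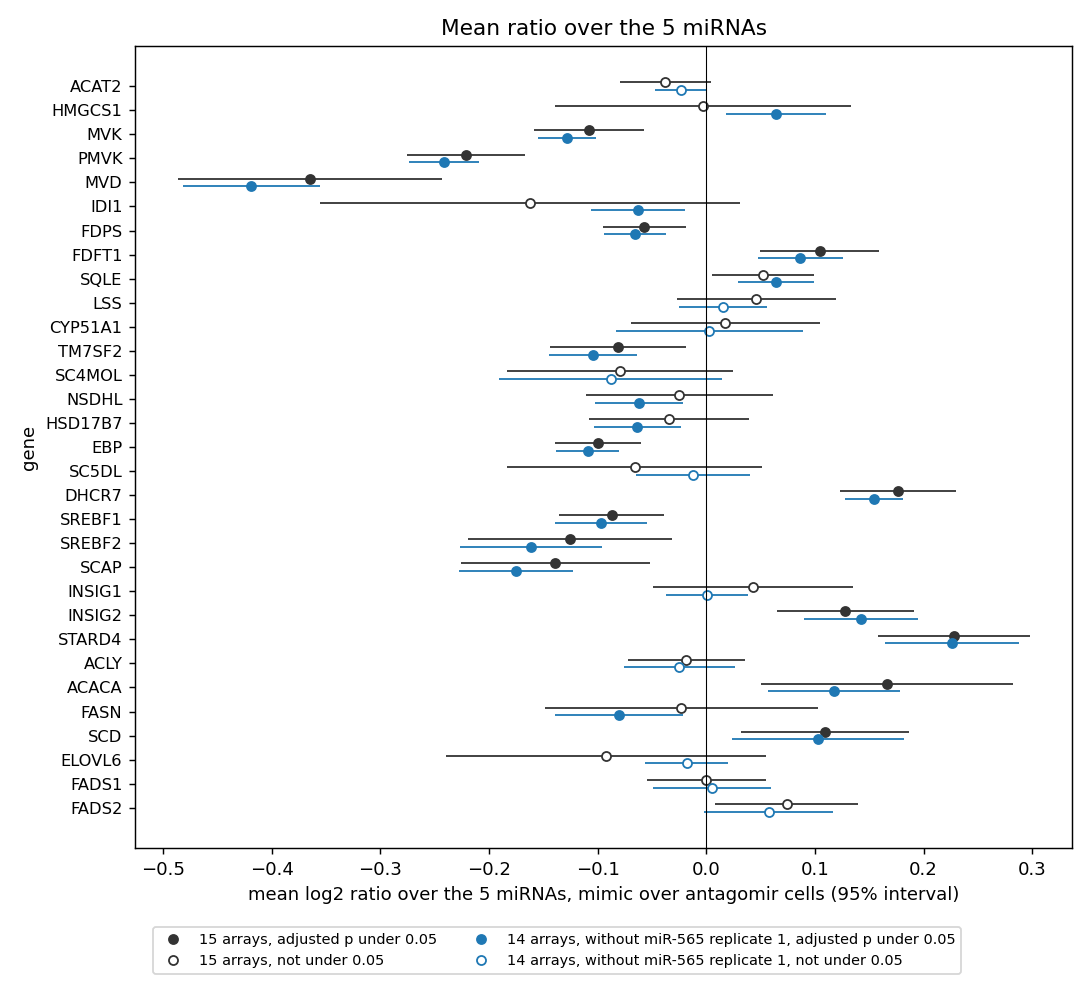
Mean log2 ratio over the 5 miRNAs (horizontal axis, lines for the 95% interval of the limma fit) for each gene (vertical axis), in black with 15 arrays and in blue without miR-565 replicate 1, filled where the adjusted p was under 0.05. MVD lies lowest at −0.36 and STARD4 highest at 0.23, and 15 of the 31 genes are filled in black.

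The number of genes with the same sign on every array gave a measure that needs no fit. DHCR7 and STARD4 were positive on all 15 arrays, 2 of 31 members, against 8.51% of all genes with 1 sign throughout. Without miR-565 replicate 1 these 2 were joined by MVK, PMVK and MVD, 5 of 31 against 17.1% of all genes. Since every array carried the dyes the same way, a dye effect would be part of each of these values.

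A difference between miRNAs does not carry a dye effect common to all arrays. With 15 arrays, limma called no member for the ratio of 1 miRNA against the mean of the other 4, against 0%, 0.113%, 1.27%, 0.0522% and 0.00869% of all genes for miR-181d and miR-565, then miR-574-3p, miR-629* and lastly miR-766. The members with an unadjusted p under 0.05 numbered 2, 8, 4, 1 and 0, against 6.74%, 17.4%, 11.2%, 4.41% and 2.62% of all genes. Nor did limma call a member in the joint test of any difference among the 5 miRNAs, against 0.552% of all genes, with 1 member at an unadjusted p under 0.05 against 8.03% of all genes. With slide as a random block 8, 0, 1, 0 and 0 members were called against the other miRNAs and 5 in the joint test. The share of all genes called with this block was not computed, so these counts cannot be read as particular to the members. The 8 were for miR-181d, whose slide also held miR-565 replicate 1. Without miR-565 replicate 1 the member counts were 0, 0, 2, 0 and 0, against 0.509%, 0.213%, 5.72%, 0.27% and 0.13% of all genes, with 5, 3, 9, 8 and 3 at an unadjusted p under 0.05 against 15%, 6.09%, 20.6%, 12.8% and 8.11%. In that fit 1 member, FASN, was called in the joint test (limma adjusted p = 0.00777) against 3.84% of all genes.

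FASN was 1 of the 2 members called for miR-574-3p against the other miRNAs without miR-565 replicate 1. That number is near the share of all genes called there (5.72%). Its log2 ratios were 0.38, 0.25 and 0.20 for miR-574-3p, −0.38, −0.36 and −0.28 for miR-181d, 0.69, −0.13 and −0.21 for miR-565, −0.15, −0.12 and −0.18 for miR-629*, and −0.05, −0.18 and 0.18 for miR-766. The miR-574-3p arrays lay above all the others except miR-565 replicate 1. Against the mean of the other miRNAs the difference was 0.37 (95% interval 0.06 to 0.69, limma adjusted p = 0.347) with 15 arrays and 0.44 (0.30 to 0.59, adjusted p = 0.0015) without that array. On the slide that miR-574-3p replicates 1 and 2 shared with miR-565 replicates 2 and 3 the difference was 0.48, and on the slide that its replicate 3 shared with miR-629* it was 0.35.

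HSD17B7 was the other. Its log2 ratios were −0.14, −0.24 and −0.24 for miR-574-3p, −0.00, 0.02 and −0.00 for miR-181d, 0.41, −0.01 and −0.04 for miR-565, 0.01, −0.08 and −0.04 for miR-629*, and 0.02, −0.19 and −0.00 for miR-766. Of the other arrays only miR-766 replicate 2 lay within the range of the miR-574-3p arrays. The difference from the other miRNAs was −0.22 (limma adjusted p = 0.344) with 15 arrays and −0.18 (adjusted p = 0.0342) without miR-565 replicate 1, and −0.17 and −0.20 within the 2 slides. A second HSD17B7 probe gave −0.17 with 15 arrays and −0.13 (limma adjusted p = 0.114) without that array. The gene has a close pseudogene copy, and which transcript the probes read was not tested.

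The 2 channels were then compared separately across miRNAs, as quantile-normalized log2 signals. In the antagomir channel 6 members differed among the 5 miRNAs, against 11.6% of all genes: HSD17B7 (limma adjusted p = 0.0085), DHCR7 (adjusted p = 0.0151), FASN (adjusted p = 0.0221), ELOVL6, EBP and ACAT2, the acetyl-CoA acetyltransferase that starts the route. Without miR-565 replicate 1, HSD17B7, DHCR7, FASN and EBP were called, 4 members against 8.83% of all genes. In the mimic channel limma called none, against 0.0696% of all genes with 15 arrays and 0.152% without that array, and 0 and 3 members had an unadjusted p under 0.05 against 4.36% and 8.29% of all genes.

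The antagomir cells of miR-574-3p differed from the other antagomir cells at 3 members, against 8.66% of all genes, and at 3 against 7.46% without miR-565 replicate 1. Both numbers are near those shares, so they are not particular to the members. FASN was lower in them (log2 difference −0.34, 95% interval −0.50 to −0.18, limma adjusted p = 0.0111), HSD17B7 was higher (0.25, 0.17 to 0.33, adjusted p = 0.00093), and DHCR7 was lower (−0.12, −0.18 to −0.07, adjusted p = 0.00942). In the mimic channel the same differences were 0.04 (−0.28 to 0.35) for FASN, 0.03 (−0.11 to 0.17) for HSD17B7 and −0.06 (−0.23 to 0.10) for DHCR7. The mimic intervals are wider than those of the antagomir channel, and that of DHCR7 holds its antagomir value, so that equal signals in the mimic cells are not shown. For the ratio of miR-574-3p against the other miRNAs DHCR7 was not called. That difference was 0.07 (limma adjusted p = 0.804) with 15 arrays and 0.10 (adjusted p = 0.0809) without miR-565 replicate 1.

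By array, the quantile-normalized FASN antagomir signal relative to its mean over the 15 arrays was −0.30, −0.22 and −0.30 (log2) for miR-574-3p, 0.07, 0.43 and 0.19 for miR-181d, 0.07, 0.23 and −0.02 for miR-565, −0.06, 0.11 and 0.11 for miR-629*, and −0.04, −0.06 and −0.21 for miR-766. The miR-574-3p arrays were the lowest 3 of the 15. For HSD17B7 they were the highest 3, at 0.22, 0.23 and 0.14, with the other 12 arrays between −0.15 and 0.06. As processed signals, FASN in antagomir cells was 285 ± 28.2 for miR-574-3p, 415 ± 61.7 for miR-181d, 374 ± 55.4 for miR-565, 315 ± 44.1 for miR-629* and 317 ± 42.4 for miR-766 (SD, n = 3 arrays each). In quantile-normalized signals, within the slide shared with miR-565 the FASN antagomir difference was −0.37 and the mimic difference 0.11. Within the slide shared with miR-629* they were −0.35 and −0.01. For HSD17B7 the antagomir difference was 0.24 and 0.21 within these slides and the mimic difference 0.07 and 0.01, and for DHCR7 the antagomir difference was −0.11 and −0.18 and the mimic difference 0.00 and −0.08. With normexp background correction of the mean signals in place of the processed signals, 2 members were called in the antagomir channel. The share of all genes called there was not computed.

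**Figure D5:**
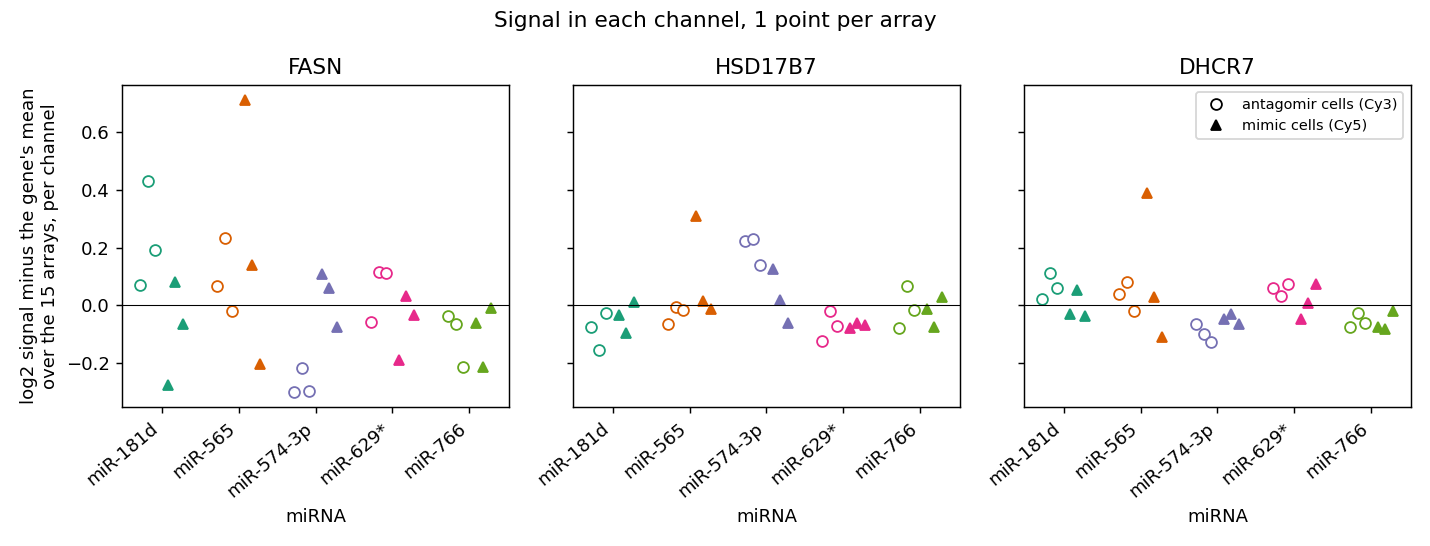
Quantile-normalized log2 signal minus the gene's mean over the 15 arrays (vertical axis) in each channel for FASN, HSD17B7 and DHCR7, 1 point per array, by miRNA (horizontal axis), with open circles for antagomir cells (Cy3) and triangles for mimic cells (Cy5). The miR-574-3p circles are the lowest for FASN and the highest for HSD17B7, while the highest triangle of each gene is miR-565 replicate 1.

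Other genes of sterol transport, lipid regulation and fatty acid elongation were read from a list of 28, of which 26 were tested. With 15 arrays 1 was called for miR-181d, 4 for miR-565, 3 for miR-574-3p, 3 for miR-629* and none by limma for miR-766, where 4 had an unadjusted p under 0.05. The shares of all genes called were 6.4%, 14%, 5.51%, 10.4% and 2.39%. NPC2, which binds cholesterol in lysosomes, was higher for 4 of the miRNAs, with 0.17 for miR-181d (limma adjusted p = 0.0222), 0.16 for miR-565, 0.15 for miR-574-3p and 0.21 for miR-629*. In the mean over the 5 miRNAs 8 of the 26 were higher against 23.1% of all genes and 3 lower against 18.5%, with ABCA1, the cholesterol efflux transporter, at 0.46 and ACSL3, an acyl-CoA synthetase, at −0.21. Without miR-565 replicate 1 the mean called 17 of the 26, 11 higher against 31.8% of all genes and 6 lower against 25.9%.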

How the data were processed

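Total RNA of A549 cells was labelled with Cy5 (mimic) or Cy3 (antagomir) and hybridized to whole human genome oligonucleotide arrays with 41000 probes. The intensity values deposited by the authors came from Feature Extraction (9.5.3.1 in the files, 9.5.3 in the submitters' notes), and the processed signals are background-corrected and normalized between the dyes. The table deposited by the authors for the series holds the log10 ratio of these signals, and it differed from the array files by 0 at most.

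Arrays were assigned to miRNAs by their titles. The log2 of processed Cy5 over Cy3 signal was fitted with limma 3.58.1 (R 4.3.3) with 1 coefficient per miRNA over 15 arrays, an intensity trend and Benjamini-Hochberg adjustment over 31357 probes. These probes were well above background in at least 1 channel on at least 3 of the 15 arrays, of whichever miRNA. Control spots (1639) and outlier spots (2296 over all arrays) were left out. No member spot was saturated. Channel signals were quantile-normalized between arrays. A gene was read from its brightest probe. Probe positions in the files are those of an older build and are not printed, and promoter and miRNA sequences came from RefSeq (GRCh38.p14). The steps were tested on data with known changes.

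Arrays lay on 4 slides: miR-181d with miR-565 replicate 1, miR-565 replicates 2 and 3 with miR-574-3p replicates 1 and 2, miR-574-3p replicate 3 with miR-629*, and miR-766 alone, whose slide and treatment cannot be told apart. The correlation of deviations from the group means was taken over pairs of arrays of different miRNAs. Over 30 pairs with the same replicate number it ran from −0.39 to 0.51 (median 0.06) and was over 0.1 in 13. Over 60 pairs with different numbers it ran from −0.58 to 0.50 (median −0.05) and was over 0.1 in 16. The ranges overlapped and the numbers were not taken to pair arrays, though some pairing is not excluded. The members, lists and tests were chosen with earlier results of these data known. Named were the 5 regulators, called members with the largest changes per comparison, and others said to be chosen after their values were seen. The alternatives were background correction, centring, probe filter, probe summary, intensity trend, slide or replicate block, single arrays left out, a fit of 3 arrays and the thresholds of the study's methods.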

Additional observations from a re-analysis of the deposited data

Results flagged for a closer look

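For 4 genes, all 3 arrays of 1 miRNA lay on the other side of 0 from all 3 arrays of another, in 8 of 310 pairs of a gene and 2 miRNAs (2.58%, against 3.33% of such pairs over all genes tested). None of these differences between a pair of miRNAs was tested. FASN had the largest, a log2 ratio difference of −0.6157 for miR-181d minus miR-574-3p, and 0.4253 for miR-574-3p minus miR-629*. ELOVL6 gave −0.5193 for miR-565 minus miR-574-3p, −0.1227 for miR-181d minus miR-574-3p and 0.2054 for miR-574-3p minus miR-629*. The sterol desaturase SC5DL gave 0.4193 for miR-181d minus miR-565 and 0.2992 for miR-181d minus miR-574-3p. These values are from its brightest probe. A second SC5DL probe had mean log2 ratios of 0.37 for miR-181d and 0.12 for miR-574-3p, and a dimmer one 0.12 and 0.54. Neither of these probes had opposite signs for miR-181d and miR-574-3p. The SREBF retention factor INSIG1 gave −0.1887 for miR-629* minus miR-766. Both differences with miR-565 include its replicate 1, where ELOVL6 was at −1.18 and SC5DL at −0.84 against −0.09 and −0.05 on replicate 2.

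FASN and HSD17B7 were picked out because the difference of miR-574-3p from the mean of the other miRNAs passed the test once miR-565 replicate 1 was left out, at 0.4433 for FASN (limma adjusted p = 0.0015) and −0.181 for HSD17B7 (adjusted p = 0.0342). With all 15 arrays neither passed it, with limma adjusted p of 0.347 and 0.344. The sign was the same on each of the 2 slides that miR-574-3p shared with another miRNA. Those arrays are among the ones that picked out the 2 genes, so this is not a separate test.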

How the results depend on the processing

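Counts of called members are given in the order miR-181d and miR-565, then miR-574-3p, miR-629* and lastly miR-766. The called values of single miRNAs, those of FASN and HSD17B7 for miR-574-3p against the others, and the 6 largest of the mean over the miRNAs kept their direction under the alternatives run. Values of miR-565 that were not called could turn: without its replicate 1 FASN went from 0.12 to −0.17 and ACACA from 0.21 to −0.03. The single-miRNA counts of 3, 2, 3, 3 and 0 became 5, 0, 10, 6 and 1 when each miRNA was fitted on its own 3 arrays, 4, 3, 3, 8 and 1 with median centring, 4, 1, 3, 5 and 0 with normexp and loess, 1, 1, 1, 3 and 0 without the intensity trend, 4, 1, 3, 3 and 0 without a filter, 3, 4, 3, 3 and 0 with the mean of all probes, and 0 throughout at the thresholds of the study's methods. Leaving out 1 array gave 0 to 11, 1 to 6, 0 to 11, 0 to 16 and 0 to 8. The highest count came without miR-565 replicate 1, except for miR-565, where it came both without replicate 1 and without replicate 2. Leaving out any 1 of their own arrays gave 0 for miR-181d and miR-629* and at most 1 for miR-574-3p. With slide as a random block (estimated correlation 0.63 for the ratios) the counts were 2, 0, 0, 0 and 0, the differences from the other miRNAs called 8, 0, 1, 0 and 0 against 0 before, the mean over the miRNAs called 1 instead of 15, and the joint test called 5 instead of 0. The antagomir channel, with an estimated correlation of −0.19, called 18 instead of 6, and the mimic channel, with 0.62, called 0. An alternative chosen after seeing the data, the slide block without miR-565 replicate 1, gave 17, 8, 11, 21 and 15 called members, differences of 3, 0, 3, 5 and 1, 24 for the mean, 9 for the joint test, 18 for the antagomir channel and 9 for the mimic channel. Its estimated correlations were −0.18 for the ratios, −0.20 for the antagomir and −0.27 for the mimic channel. A negative correlation makes the error smaller by construction. Shares of all genes called were computed only for the main fit and for that fit without miR-565 replicate 1. They were not computed for any other alternative here, with or without slide as a block. Those counts cannot be read as particular to the members. The antagomir count was 2 with normexp and quantile normalization, 3 without the trend and 1 to 6 with 1 array left out, the lowest without miR-574-3p replicate 2. The mean over the miRNAs called 12 to 21 members with 1 array left out, the joint test 0 to 1, the difference of miR-574-3p 0 to 2, and the other differences and the mimic channel 0. With the replicate block, though the numbers were not taken to pair the arrays, the counts were 2, 2, 3, 3 and 0. The mean called 13, the antagomir channel 5 and the rest 0. Of the values of single genes under alternatives other than the single arrays left out, 188 kept their side of the threshold, 29 lost it and 3 gained it. These include the fits of 3 arrays and the slide block without miR-565 replicate 1. Signal over background did not limit these genes, and 3 arrays a miRNA limit the precision.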

Other observations

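Of the 31 genes, 15 had more than 1 probe, and probes of 1 gene could disagree in the mean log2 ratio over the 5 miRNAs. The second probe of ACAT2 gave 0.20 (limma adjusted p = 7.92e-06) where the brightest gave −0.04, that of FADS1, a fatty acid desaturase, gave 0.21 where the brightest gave 0.00, and a second SC5DL probe gave 0.24 where the brightest gave −0.07. The second MVK probe gave −0.41 and the brightest −0.11, the same direction with a larger size. ACACA and SCD were called in the mean from their brightest probes and not from their others. Which transcripts these probes read was not tested.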
